A study of Mus musculus with 12 samples.

Results

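The C18-4 cells that carried the empty LV5 vector (5NC) were compared with the C18-4 cells that carried the LV3 vector with a control hairpin (3NC), gene by gene. Neither group had lncRNA5251 raised or lowered, so the comparison shows how the 2 control cultures of the study differed from each other. A gene entered it when its RPKM (a read count scaled to gene length and library size) was at least 1 in at least 3 of the 6 control libraries, and 11245 of the 17576 genes in the table did so. Of these genes 10778 were at 1 RPKM or more in all 6 libraries. A further 224 passed with exactly 3 libraries, 104 of them through the 5NC libraries alone and 78 through the 3NC libraries alone. The remaining 6331 genes were not tested, and 1290 genes of the table were listed at 0 in all 6 control libraries.

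C18-4 is a mouse spermatogonial cell line, for which the labels give the strain as IRC mouse. The series held 12 libraries in 4 groups of 3, namely 3NC, 5NC, KD (lncRNA5251 knockdown, 3 hairpins mixed, LV3 vector) and OV (lncRNA5251 overexpression, LV5 vector). According to the methods the C18-4 cells were grown in serum-containing medium and transfected with RNAi-mate, and the labels do not say that the 3 libraries of a group came from separate cultures, so that p-values measure the spread between libraries, which may be technical. A supplementary version of the methods heads the cell experiment with another lncRNA and gives 2 hairpins a position, so the target and hairpins of KD and OV are given here as in the labels and the main methods. The 3NC and 5NC cells differed at once in the vector backbone and in what it carried, a hairpin against no insert, and these cannot be told apart here. The hairpin of the 3NC cells is shown because the 5NC vector carried no insert in its place.
control shRNA: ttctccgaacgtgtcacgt

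A vector control is meant to carry everything of the treated cells except the treatment. A spermatogonial line is expected to hold germ cell RNA, while its growth in culture is driven by pathways that many dividing cells share. Growth factor receptors act through the kinase ERK on immediate and delayed target genes such as the AP-1 and PEA3 factors. Low oxygen and high metabolic demand act through the factor HIF1 on glycolysis, oxidants act through NRF2 on detoxifying enzymes, and shortage of amino acids or unfolded protein acts through ATF4 on amino acid transport and synthesis. Sterol shortage acts through SREBP2 on cholesterol synthesis, and fibroblast-like states are known by collagens and other secreted matrix.

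The germ cell label was checked against marker genes, and most of them were absent or low in both groups. Of 18 spermatogonia markers that the table holds, 14 stayed under 1 RPKM in all 6 control libraries, and Id4, Etv5, Uchl1 and Itga6 were tested. These 4 are also expressed in other cell types. Uchl1, a ubiquitin hydrolase gene, was at 77.1 RPKM in 3NC and 91.1 in 5NC, Etv5 at 7.81 and 3.10, the integrin gene Itga6 at 5.51 and 4.51, and Id4 at 1.56 and 1.28. Ret, Kit, Nanos2, Stra8 and Thy1 were at 0 RPKM in every control library. Gfra1, a receptor of spermatogonial stem cells, reached at most 0.17 RPKM, and the germ cell helicase Ddx4 at most 0.03. Of the later germ cell markers only Sycp1 was tested, at 1.23 ± 0.118 RPKM in 3NC and 0.807 ± 0.206 in 5NC (SD, n = 3). The cells expressed Wt1, a factor of Sertoli and mesothelial cells, at 50.3 RPKM in 3NC and 52.3 in 5NC, the keratin Krt19 at 250.2 and 212, and the keratin Krt18 at 67.5 and 60.6. Sox9 and Amh, which define Sertoli cells, reached at most 0.02 and 0.14 RPKM. Upk3b, a gene chosen after its values were seen that marks mesothelial and urothelial linings, rose from 239.6 RPKM in 3NC to 791 in 5NC. The cells are therefore called by their group names in what follows.

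Blood and vessel cell markers were low. None of the 6 endothelial markers in the table was tested, and the leukocyte gene Ptprc reached at most 0.01 RPKM. Among the macrophage markers only Cd68, a lysosomal glycoprotein, was tested, with 5.42, 4.11 and 5.61 RPKM in 3NC and 2, 2.24 and 2.29 in 5NC, a difference of -0.92 on the log2(RPKM + 1) scale that missed the fold limit but passed it without 3NC replicate 2 (-1.04) or with a pseudocount of 0.1 (-1.17). The fibroblast list was not low, and 5 of its 8 genes were tested, of which 2 (Col3a1 and Dcn) were called higher. Over all genes tested 1.58% were called higher and 1.08% lower. The receptor gene Pdgfra went from 1.32 to 0.877 RPKM (-0.31) and Pdgfrb from 0.833 to 1.23 (0.28), and neither was called. The summed level of the list was 309.8 to 320.3 RPKM in the 3NC libraries and 609.6 to 615.9 in the 5NC libraries. Most of it came from the matrix gene Col1a1 (256 and 381 RPKM) with Col3a1 and Dcn. Col1a2 was at no more than 0.58, Dpt at no more than 0.09 and Thy1 at 0 RPKM. Of 6 tested Sertoli markers Clu was called higher and Rhox5 lower (2.89 to 0.913 RPKM, a call lost without 5NC replicate 2 at -0.92 or 3NC replicate 3 at -0.93), of 5 epithelial markers the keratin Krt7 was called higher (0.770 to 3.42 RPKM), of 4 peritubular myoid markers Acta2 was, and of the Leydig markers only Star was tested, at about 1 RPKM. In bulk RNA more cells of a type and more RNA per cell cannot be told apart. The part of these markers in the other results was not tested.

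The 6 control libraries were alike in size and spread. Their RPKM values summed to 533099 to 554527, 11107 to 11165 genes reached 1 RPKM, and their depth relative to each other, taken from the smallest steps of 65 low genes, was 0.94 to 1.02. Rank correlations between libraries were 0.9976 to 0.9978 within 3NC and 0.9973 to 0.9979 within 5NC, and no 2 libraries held identical values. The read numbers behind the values are not known. Over all 12 libraries the leading principal component held 59.2% of the variance and set 3NC and KD (LV3) apart from 5NC and OV (LV5), and the next held 23.8% and set 3NC apart from the other 3 groups. Purb, the gene that the knockdown hairpins match, was at 33.6 ± 0.624 RPKM in 3NC and 30.7 ± 1.46 in 5NC (SD, n = 3), a difference of -0.13 that was not called (adjusted p = 0.263).

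Differences between the controls were widespread and mostly small. Called genes are those with a Benjamini-Hochberg adjusted p of at most 0.001 in limma and a difference of at least 1 in log2(RPKM + 1), and every log2 fold change below is such a difference, 5NC minus 3NC. There were 178 genes called higher in 5NC (1.58% of the genes tested) and 121 called lower (1.08%), 299 in all (2.66%). Without the fold limit, with adjusted p no higher than 0.05, 3514 genes were higher (31.2%) and 2910 lower (25.9%). The median log2 fold change of all genes was 0.02, and the median absolute change was 0.21. The libraries of the groups did not overlap for 7846 genes (69.8%), which include all 299 called genes. Of the called genes 25 higher (14%) and 16 lower (13.2%) were under 1 RPKM in every library of the other group. They passed the filter only through the group where they are high and so had to differ, and their calls are a description. Those named below are Npr3, Cldn15 and Pkhd1l1 among the rises and Areg, Mmp10, Ltbp1, Fabp4, Itgb7 and Gm3776 among the falls. The genes called higher had a median of 4.86 RPKM in 3NC and 15.7 in 5NC, and those called lower had a median of 14.7 in 3NC and 5.21 in 5NC, against 14.1 and 14.6 for all genes tested.

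**Figure D1:**
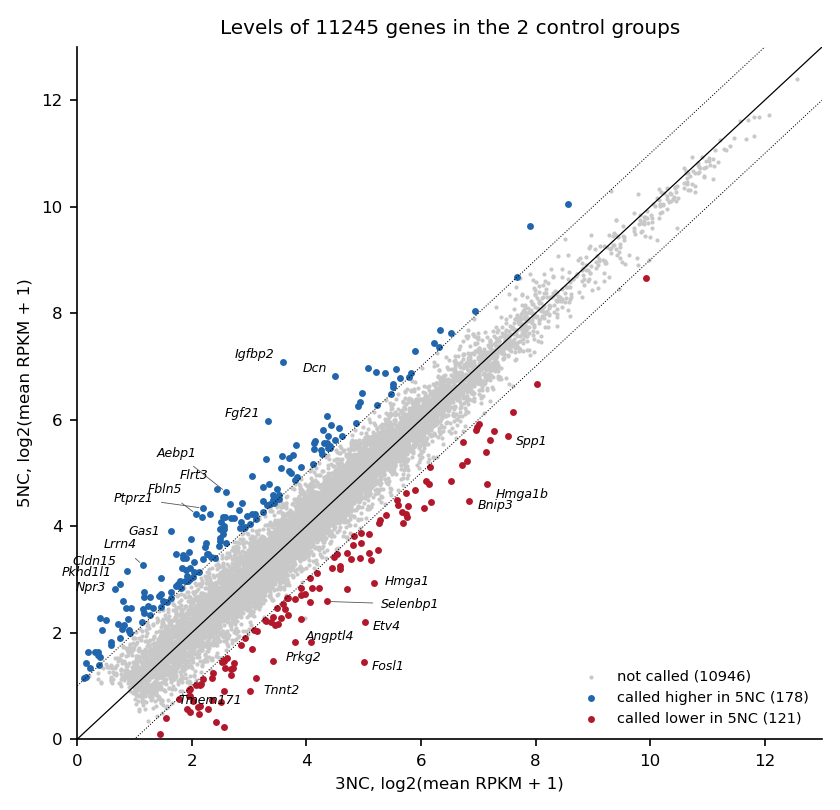
Mean levels of the 11245 genes tested in 3NC (x axis) and 5NC (y axis), both as log2(mean RPKM + 1), with genes called higher in blue (178), called lower in red (121) and the rest in grey. The solid line marks equal levels and the dotted lines a difference of 1, and the named genes are the 12 largest rises and 11 of the largest falls, led by Igfbp2 (3.50) and Fosl1 (-3.56).

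The largest rises were led by Igfbp2, Fgf21 and Dcn. Igfbp2, a secreted carrier that binds insulin-like growth factors, rose most, from 12.94, 10.89 and 9.34 RPKM in the 3NC libraries to 129.78, 138.26 and 135.71 in the 5NC libraries. This was a log2 fold change of 3.50 (SE 0.104, adjusted p = 1.09e-12), and the lowest 5NC library stood about an order of magnitude above the highest 3NC library. Fgf21, a stress hormone of the fibroblast growth factor family, went from 8.76, 9.50 and 8.98 RPKM to 59.9, 62.1 and 63.5 (log2 fold change 2.64, SE 0.0623, adjusted p = 1.22e-13). Dcn, the small matrix proteoglycan decorin, went from 21.7, 22.2 and 20.9 RPKM to 112, 115 and 109 (2.32, SE 0.0481, adjusted p = 2.61e-14). All of these genes were separated by far more than the spread within either group. Gas1, a surface protein that binds Hedgehog ligands, went from 2.09 ± 0.130 to 14 ± 0.807 RPKM (SD, n = 3). Flrt3, a leucine-rich adhesion protein of the surface, went from 4.43 to 24.8 RPKM, and Fbln5, an organiser of elastic fibres, from 3.22 to 17.7. Ptprz1, a receptor tyrosine phosphatase, went from 3.59 to 19.2 RPKM, and Aebp1, a matrix protein of the carboxypeptidase family, from 5.03 to 24. Npr3, the clearance receptor for natriuretic peptides, was lowest of the set, at 0.57 RPKM in 3NC and 6.05 in 5NC, and Cldn15, a claudin of tight junctions, went from 0.83 to 7.92. Pkhd1l1 (0.683 to 6.5 RPKM) and Lrrn4 (1.21 to 8.63) complete the 12, whose log2 fold changes were 2.05 to 3.50.

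The largest falls were led by the transcription factor genes Fosl1 and Etv4. Fosl1, the AP-1 subunit FRA-1, fell most, from 31.2, 29.8 and 31.9 RPKM in 3NC to 1.61, 1.98 and 1.58 in 5NC, a ratio of 18 (log2 fold change -3.56, SE 0.123, adjusted p = 4.56e-12). Etv4, a PEA3-type ETS factor, fell from 32.1, 30.2 and 31.6 RPKM to 3.40, 3.73 and 3.63 (-2.82, SE 0.0851, adjusted p = 1.28e-12). Bnip3, a mitochondrial protein of mitophagy and a classical hypoxia gene, fell from 112, 118 and 111 RPKM to 20.9, 22.3 and 20.8 (-2.36, SE 0.0473, adjusted p = 2.61e-14). In each of the 3 genes no 5NC library came near any 3NC library. The chromatin protein gene Hmga1 (35.4 to 6.61 RPKM) and its near-identical copy Hmga1b (141 to 26.8) fell by similar amounts, but reads could have been divided between the copies, so their separate values are uncertain. Angptl4, a secreted inhibitor of lipoprotein lipase, fell from 12.9 to 2.54 RPKM, and the secreted phosphoprotein Spp1 (osteopontin) fell from 181 to 50.4. Selenbp1, a selenium-binding enzyme, fell from 19.5 to 5.00 RPKM, the cardiac troponin gene Tnnt2 from 7.65 to 1.22, the cGMP-dependent kinase gene Prkg2 from 9.72 to 1.77, and Tmem171 from 7.09 to 0.863. The 11 log2 fold changes were between -1.77 and -3.56, with adjusted p-values of at most 6.75e-09.

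**Figure D2:**
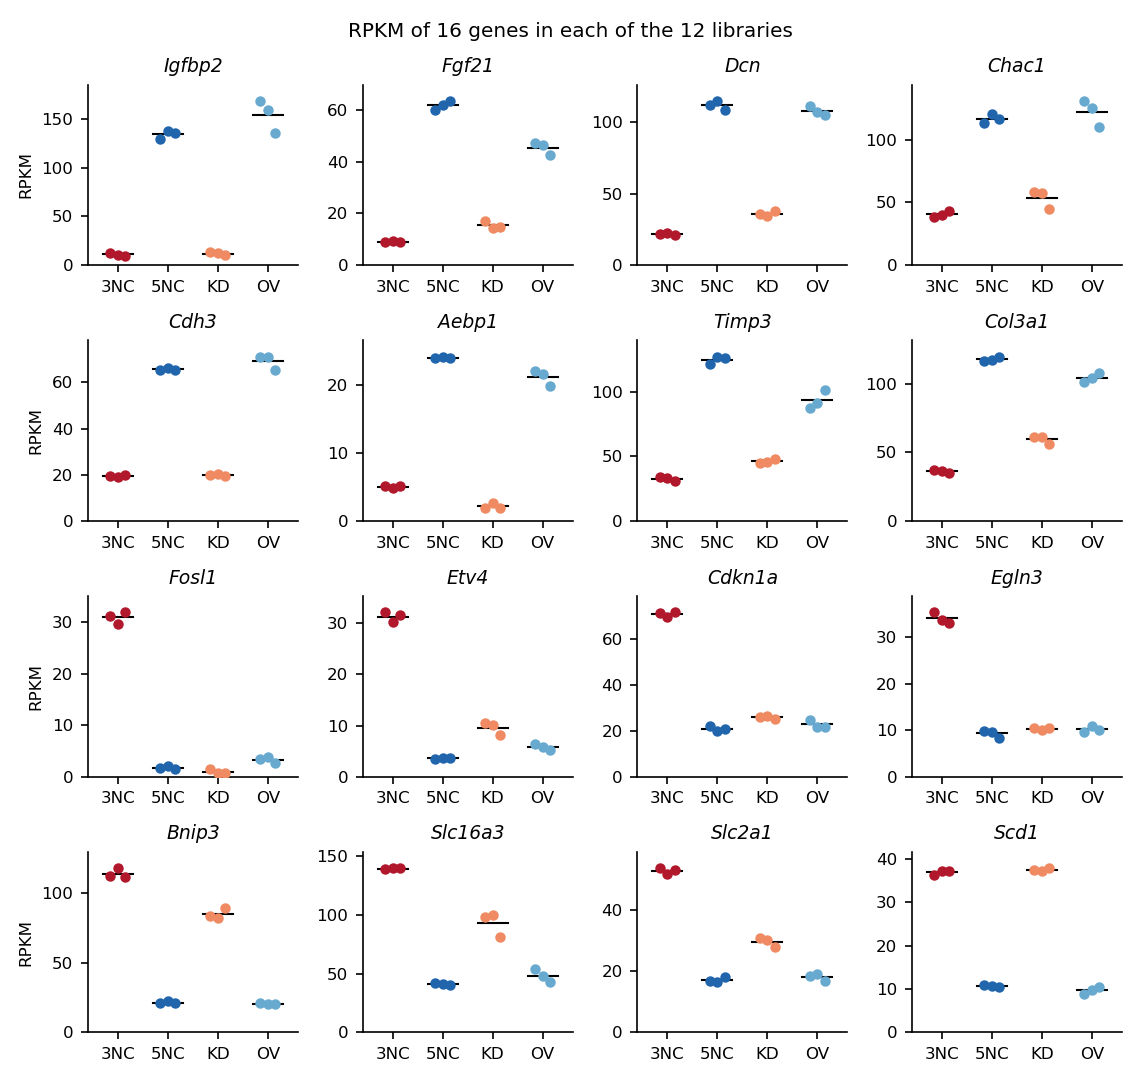
RPKM (y axis, from 0) of 16 genes in each of the 12 libraries, 3 points a group with the group mean as a line. In the upper 8 genes the 5NC points stand above the 3NC points, in the lower 8 below them, and for Cdkn1a and Egln3 the KD points lie with the 5NC and OV points while for Scd1 they lie with the 3NC points.

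Genes were then read in 29 lists, and 22 of the lists had at least 1 called member. Each list is given by its counts and its median, beside 1.58% called higher, 1.08% called lower and a median of 0.02 over all genes tested. With adjusted p no higher than 0.05 and no fold limit the shares of all genes were 31.2% higher and 25.9% lower. For OV against KD 2.58% of all genes were called higher and 1.69% lower, and the difference between the pairs was called for 2.85%.

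**Figure D3:**
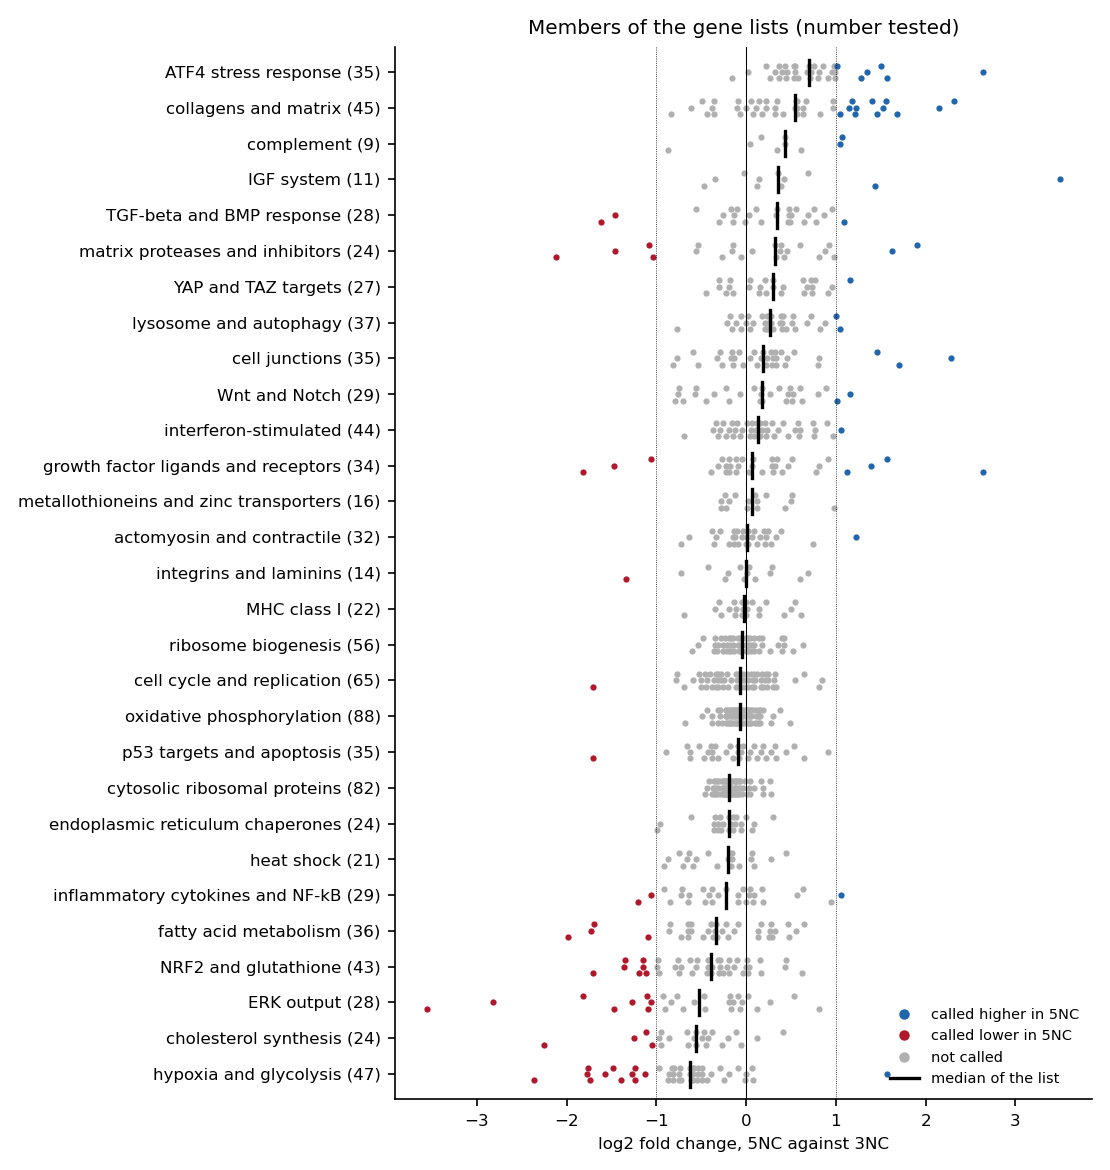
Log2 fold change (5NC against 3NC, x axis) of every tested member of the 29 gene lists, ordered by the list median (black bars), with members called higher in blue and called lower in red. ATF4 stress response genes have the highest median (0.71) and hypoxia and glycolysis genes the lowest (-0.63), while the medians of oxidative phosphorylation (-0.07) and cell cycle genes (-0.06) lie close to 0.

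The ERK output list holds feedback regulators, AP-1 and ETS factors and ligands that rise when the RAS to ERK cascade is active. Of its 28 tested members 8 were called lower and 0 higher, the median log2 fold change was -0.52, and with adjusted p no higher than 0.05 16 were lower and 3 higher. Besides Fosl1 and Etv4, the related factor Etv5 fell from 7.81 to 3.10 RPKM (log2 fold change -1.11), and it is also 1 of the 4 spermatogonia markers that were tested. EGF receptor ligands fell as well. Areg (amphiregulin) went from 4.55, 5.03 and 4.56 RPKM to 0.90, 0.40 and 0.59 (-1.82), which passed the filter through 3NC alone, and Ereg (epiregulin) went from 5.58, 5.67 and 4.95 to 1.38, 1.45 and 1.11 (-1.47, SE 0.0876, adjusted p = 1.83e-09). The nuclear protein gene Phlda1 fell from 29.9 to 11.8 RPKM (-1.27). The most abundant members were not called. Ier3, an early response gene, was at 251 RPKM in 3NC and 153 in 5NC (-0.71), and the cyclin gene Ccnd1 at 49.5 and 28.7 (-0.77). The receptor gene Epha2 (56.1 and 61.3 RPKM, 0.13, adjusted p = 0.0716) and the survival gene Mcl1 (37.0 and 37.7, 0.02, adjusted p = 0.724) passed neither limit.

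In the knockdown and overexpression cells Etv4 and Areg kept the order of the controls, with LV3 above LV5, and Fosl1 and Phlda1 did not. Fosl1 stood at 0.983 RPKM in KD and 3.30 in OV, Etv4 at 9.55 and 5.83, Areg at 1.79 and 0.617, and Phlda1 at 11.8 and 15.7. The 3NC cells thus held the highest level of all 4 groups for each of these genes, and KD, which shares their vector, was closer to 5NC than to 3NC in RPKM. The list median for OV against KD was 0.30, and for 15 of the 28 members the difference between the contrasts was itself called, against 2.85% of all genes.

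Hypoxia and glycolysis genes were lower in 5NC across nearly the whole list. Of 47 tested members 11 were called lower and 1 higher, 41 were lower and 1 higher with adjusted p no higher than 0.05, and the median was -0.63. The glucose carrier Slc2a1 (GLUT1) went from 53.5, 51.7 and 52.9 RPKM to 16.7, 16.4 and 18.2 (log2 fold change -1.57, SE 0.0595, adjusted p = 1.17e-11). The lactate exporter Slc16a3 (MCT4) went from 139, 140 and 140 RPKM to 42.1, 40.9 and 40.0 (-1.74, SE 0.0780, adjusted p = 7.00e-11). Lactate dehydrogenase Ldha, between these steps, went from 987, 959 and 987 RPKM to 392, 409 and 414 (-1.27, SE 0.0454, adjusted p = 6.92e-12). The genes of glucose uptake, lactate formation and lactate export thus fell together, and in none of them did the groups overlap, as in 69.8% of all genes. The middle enzymes were lower by less than the fold limit. Aldoa was at 874 RPKM in 3NC and 521 in 5NC (-0.75, adjusted p = 2.88e-08), Pkm at 1112 and 667 (-0.74, adjusted p = 9.65e-08), and Gapdh at 3604 and 2568 (-0.49, adjusted p = 4.33e-05). Egln3, the HIF prolyl hydroxylase PHD3, fell from 34.0 ± 1.14 to 9.31 ± 0.788 RPKM (SD, n = 3). The member called higher was Stc2, a secreted glycoprotein that the ATF4 list also holds, from 1.75 to 7.15 RPKM.

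**Figure D4:**
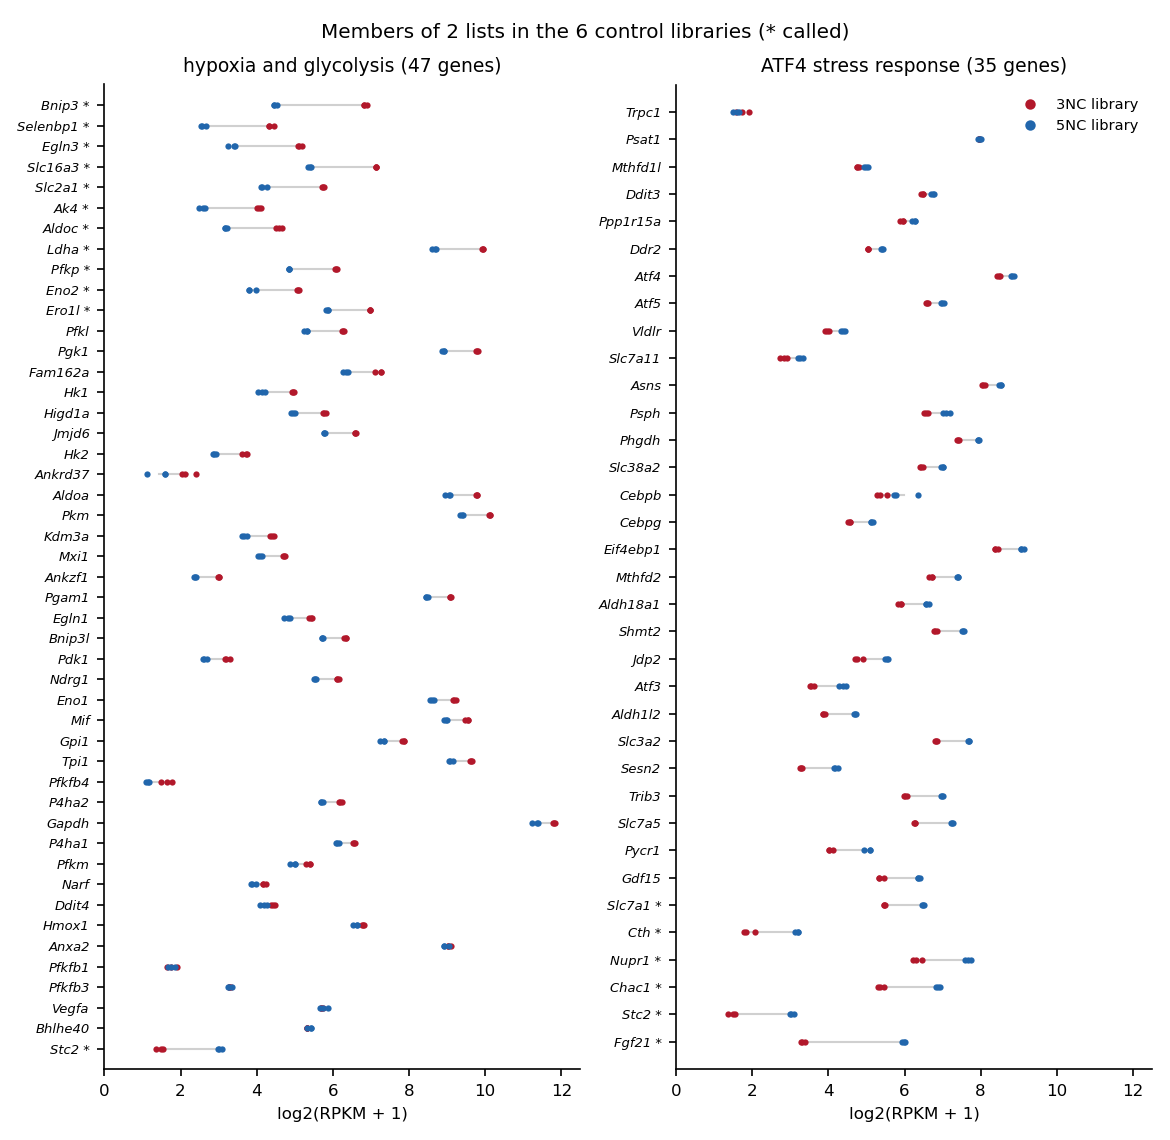
Level of each tested member of the hypoxia and glycolysis list (47 genes, left) and the ATF4 stress response list (35 genes, right) in the 3 libraries of 3NC (red) and 5NC (blue), as log2(RPKM + 1) on the x axis. Stars mark called genes, which are 11 lower and 1 higher on the left and 6 higher on the right.

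HIF binds the letters ACGTG, and promoters were searched for them on both strands, from 250 bases before to 50 bases after each RefSeq start site (mouse build GRCm38.p6). A promoter was given for 9061 of the 11245 genes tested, and a gene counted if any of its promoters held the letters, while ACGTG inside CACGTG, which matches on both strands, counted as 1 site. ACGTG stood in 9 of the 11 hypoxia and glycolysis genes called lower (81.8%) and in 31 of 43 tested members with a promoter (72.1%), against 30.0% of all tested genes and 19.6% of all 32851 promoters. Over all genes called lower it stood in 33.3%, close to the background. The promoters of Bnip3 and Ldha are shown because they carry this pattern in the strongest fall of the list and in its most abundant called member, and capitals mark ACGTG on either strand with any letter of an overlapping match. In Bnip3 (chr7:138909457-138909756, minus strand) the run starts at position -108 from the start site, and in the Ldha promoter (chr7:46845554-46845853, plus strand) there are 3 runs, at -145, -48 and -34. A further Ldha start site of the table, chr7:46846832-46847131, held 0.
Bnip3: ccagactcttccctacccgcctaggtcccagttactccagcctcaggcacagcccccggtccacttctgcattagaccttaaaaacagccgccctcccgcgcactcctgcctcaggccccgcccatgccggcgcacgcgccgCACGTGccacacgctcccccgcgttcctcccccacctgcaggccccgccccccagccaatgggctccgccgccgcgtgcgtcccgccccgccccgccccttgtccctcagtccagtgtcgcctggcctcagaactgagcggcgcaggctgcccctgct
Ldha: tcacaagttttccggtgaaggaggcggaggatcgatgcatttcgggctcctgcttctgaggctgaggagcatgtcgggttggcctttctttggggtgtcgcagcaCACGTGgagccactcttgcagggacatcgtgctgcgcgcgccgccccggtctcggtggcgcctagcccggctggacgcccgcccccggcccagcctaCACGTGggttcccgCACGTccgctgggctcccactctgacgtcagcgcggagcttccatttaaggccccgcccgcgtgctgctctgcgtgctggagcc

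A match in these letters is a description of the sequence and not a measured binding site. Members of a list were chosen by pathway, here and in the searches below. The share of a whole list against all genes thus describes the list and not these cells. Slc16a3 held 2 matches (at -27 and -14) and Slc2a1 held 1 (at -36).

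For OV against KD the hypoxia list had a median of -0.47, with 7 members called lower and 3 called higher. Bnip3 stood at 84.9 RPKM in KD and 20.6 in OV, Ldha at 792 and 465, Slc16a3 at 92.9 and 48.2, and Slc2a1 at 29.6 and 18. In all 4 genes 3NC was highest and KD next. Egln3 differed from them, with 10.3 RPKM in KD and 10.2 in OV.

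Sterol genes were lower in 5NC too. Of the 24 tested cholesterol synthesis genes 4 were called lower and 0 higher, 20 were lower and 1 higher with adjusted p no higher than 0.05, and the median was -0.56. Among the members called lower, the sterol carrier Stard4 fell from 20.9 ± 0.960 to 8.24 ± 0.516 RPKM (SD, n = 3, log2 fold change -1.25, adjusted p = 2.04e-08), and Hsd17b7, an enzyme of the late pathway, from 9.69 to 3.93 RPKM (-1.12, adjusted p = 4.06e-08). Fdps, farnesyl diphosphate synthase, fell from 69.9 to 33.5 RPKM (-1.04), a call that was lost without 5NC replicate 3 (-0.999). Hmgcs1, the synthase before the rate-limiting step, was at 105 RPKM in 3NC and 53.9 in 5NC (-0.95), and Srebf2, the master factor of the pathway, at 43.9 and 31.5 (-0.47). For OV against KD the list median was -0.55, with 3 members called lower, and the difference between the pairs was called for 0 members.

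Fatty acid genes were mixed. Of 36 tested 4 were called lower and 0 higher, with 23 lower and 10 higher with adjusted p no higher than 0.05 and a median of -0.33. The desaturase Scd1 went from 36.2, 37.1 and 37.2 RPKM to 10.8, 10.7 and 10.5 (-1.70, SE 0.0555, adjusted p = 3.14e-12) and stood at 37.4 in KD and 9.76 in OV, so that the LV3 groups and the LV5 groups each lay together. Its relative Scd2 fell from 128 to 59.3 RPKM (-1.09). Fabp4, a fatty acid carrier of adipocytes and endothelium, went from 3.88 to 0.480 RPKM (-1.73), passed the filter through 3NC alone and was low in KD (0.897) and OV (0.747). Lpl, lipoprotein lipase, was higher in 5NC at 189.6 RPKM against 121 (0.64, adjusted p = 3.36e-08), short of the fold limit, while its inhibitor Angptl4 fell as given above.

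NRF2 and glutathione genes were lower in 5NC. Of 43 tested members 7 were called lower and 0 higher, 31 were lower and 5 higher with adjusted p no higher than 0.05, and the median was -0.40. The glutathione transferase Gsta1 went from 63.5, 65.0 and 67.9 RPKM to 20.2, 17.1 and 20.8 (-1.71, SE 0.0765, adjusted p = 6.89e-11). Nqo1, the quinone reductase that is the standard NRF2 readout, went from 22.3, 23 and 24.1 RPKM to 8.36, 8.76 and 8.40 (-1.34, SE 0.0580, adjusted p = 4.76e-11). The repair enzyme gene Srxn1 fell from 27 to 11.6 RPKM (-1.15), the pentose phosphate enzyme gene Pgd from 124 to 55.2 (-1.15), the carbonyl reductase gene Cbr3 from 40.9 to 17.4 (-1.19) and the esterase gene Esd from 259 to 101 (-1.36). Gsta4 was at 697 RPKM in 3NC and 350.4 in 5NC (-0.99) and passed the fold limit without 5NC replicate 2 (-1.002), 5NC replicate 3 (-1.01) or 3NC replicate 3 (-1.01). The ferritin genes, which NRF2 also drives, did not pass the test (Fth1 1617 and 1581 RPKM, adjusted p = 0.646, and Ftl1 2397 and 2436, adjusted p = 0.760), and Gstp1 was at 1021 and 691 (-0.56). The list median for OV against KD was 0.02, and the difference between the pairs was called for 11 members. The letters TGACNNNGC of the antioxidant response element stood in 13 of 38 tested members with a promoter (34.2%), against 16.9% of tested genes and 12.4% of all promoters. The AP-1 letters TGANTCA, which read alike on both strands and can overlap the former, stood in 2 of 17 tested ERK output members with a promoter (11.8%) and in 0 of the 2 called lower that had one. They stood in 14 of 84 genes called lower (16.7%) and 15 of 126 called higher (11.9%), against 5.58% of tested genes and 7.81% of all promoters.

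ATF4 stress response genes went the other way. Of 35 tested members 6 were called higher and 0 lower, 33 were higher and 0 lower with adjusted p no higher than 0.05, and the median was 0.71. Besides Fgf21 and Stc2, the glutathione-degrading enzyme gene Chac1 went from 38.5, 40.2 and 43.1 RPKM to 114, 121 and 117 (1.5, SE 0.0856, adjusted p = 1.02e-09). The stress-induced chromatin protein gene Nupr1 went from 78.2, 86.8 and 73.2 RPKM to 193, 204 and 214 (1.35, SE 0.0828, adjusted p = 2.55e-09). Cth, which makes cysteine from cystathionine, rose from 2.74 to 8.03 RPKM (1.28), and the cationic amino acid carrier Slc7a1 from 43.4 to 88.5 (1.01, the member nearest to the fold limit). Atf4 itself was at 353 ± 8.23 RPKM in 3NC and 456 ± 15.4 in 5NC (SD, n = 3, log2 fold change 0.37, adjusted p = 8.90e-06). Asparagine synthetase Asns was at 266 and 364 RPKM (0.45), the translation repressor Eif4ebp1 at 337 and 539.8 (0.68), and the serine synthesis enzyme Psat1 at 247 and 251 (0.02, adjusted p = 0.671).

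ATF4 binds a composite element whose letters were searched as TGATGNAA on both strands. They stood in 3 of the 5 called members with a promoter (60.0%) and in 10 of 31 tested members (32.3%), against 2.46% of tested genes and 3.97% of all promoters. Of all genes called higher they stood in 8 of 126 (6.35%). As above, the share in the whole list describes its members and not these cells. Fgf21 and Chac1 are shown because they had the largest changes among the 3 called members with a match, the other being Nupr1. The match, in capitals, starts at -139 in Fgf21 (chr7:45615441-45615740, minus strand, GRCm38.p6) and at -193 in Chac1 (chr2:119350992-119351291, plus strand), and both read the element on the opposite strand.
Fgf21: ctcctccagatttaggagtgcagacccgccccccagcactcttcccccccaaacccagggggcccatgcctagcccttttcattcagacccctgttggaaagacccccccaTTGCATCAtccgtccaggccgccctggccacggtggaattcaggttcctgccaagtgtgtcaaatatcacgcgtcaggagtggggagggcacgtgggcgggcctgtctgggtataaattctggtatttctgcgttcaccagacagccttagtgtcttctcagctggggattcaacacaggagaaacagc
Chac1: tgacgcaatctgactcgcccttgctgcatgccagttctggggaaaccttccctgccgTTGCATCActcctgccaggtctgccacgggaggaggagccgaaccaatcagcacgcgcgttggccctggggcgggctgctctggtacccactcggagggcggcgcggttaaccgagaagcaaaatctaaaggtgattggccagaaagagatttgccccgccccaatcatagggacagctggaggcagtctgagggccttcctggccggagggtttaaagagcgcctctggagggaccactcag

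The uncalled members Asns (at -23) and Trib3 (at 15, after the start site) held a match as well, so that a match was not confined to called members.

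The list rose in OV against KD as well, with a median of 0.92 and 16 members called higher there. Chac1 stood at 53.5 RPKM in KD and 122 in OV, Cth at 2.58 and 7.02, Slc7a1 at 40.6 and 81.8, and Stc2 at 0.723 and 7.09. For Cth and Slc7a1 the LV3 groups and the LV5 groups each lay within a narrow range, while Fgf21 (15.4 RPKM in KD and 45.4 in OV) changed more in the controls, a difference of 1.14 that was called. Atf4 was lowest in KD, at 254 RPKM, and 482 in OV.

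Chaperones did not rise with the ATF4 genes. Of 24 endoplasmic reticulum chaperones 0 were called, 16 were lower and 1 higher with adjusted p no higher than 0.05, and the median was -0.19. Hspa5 (BiP), the sensor-bound chaperone of the unfolded protein response, was at 1011 ± 20.7 RPKM in 3NC and 509 ± 13.1 in 5NC (SD, n = 3, log2 fold change -0.99, adjusted p = 1.82e-10), and it passed the fold limit without 5NC replicate 2 (-1.01) or 3NC replicate 3 (-1.0005). Hsp90b1 was at 926 and 747 RPKM (-0.31), Calr at 1146 and 1053 (-0.12) and P4hb at 1028 and 913 (-0.17). Of 21 heat shock genes 0 were called, and 14 were lower and 2 higher with adjusted p no higher than 0.05, with Hspa8 at 1419 and 777 RPKM (-0.87), Hsp90aa1 at 756 and 484 (-0.64), Hsp90ab1 at 1881 and 1687 (-0.16) and Hspe1 at 316 and 332 (0.07, adjusted p = 0.188).

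In the insulin-like growth factor system 2 of 11 tested members were called higher, both of them binding proteins. Besides Igfbp2, Igfbp4 rose from 8.77, 9.14 and 9.60 RPKM to 28.0, 25.6 and 26.1 (log2 fold change 1.44, SE 0.0841, adjusted p = 1.46e-09). Igfbp2 stood at 11.8 RPKM in KD and 155 in OV, and Igfbp4 at 4.61 and 22.8, so that both were high in the LV5 groups and low in the LV3 groups. Other members lay close together in the controls, with Igfbp6 at 29.9 and 23.3 RPKM (-0.35), Igfbp7 at 121 and 131 (0.12, adjusted p = 0.121), the protease Htra1 at 76.1 and 102 (0.42) and the receptor Igf2r at 16.2 and 21.5 (0.39).

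Matrix genes gave 12 of the 178 genes called higher. Of 45 tested collagen and matrix genes 12 were called higher (26.7%) and 0 lower, 30 were higher and 7 lower with adjusted p no higher than 0.05, and the median was 0.54. Of the 12 called higher, 1 passed the filter through the 5NC libraries alone and so had to differ. The fibrillar collagen gene Col3a1 went from 36.8, 36.2 and 35 RPKM to 116, 117 and 120 (1.68, SE 0.0457, adjusted p = 5.34e-13). Col6a2, of the microfibrillar collagen, rose from 30.5 to 89.6 RPKM (1.53), Ogn, the proteoglycan osteoglycin, from 2.84 to 10.4 (1.56), and Loxl1, which crosslinks elastin, from 16.7 to 47.7 (1.46). With Dcn and Fbln5 these genes span collagen, proteoglycan and elastic fibre components. Among the most abundant members Col1a1 was at 256 and 381 RPKM (0.57), the collagen chaperone Serpinh1 at 308 and 452 (0.55), and Col5a2 at 184 and 326 (0.82). Sparc, a collagen-binding glycoprotein, was at 641 and 1258 RPKM (0.97) and passed the fold limit without 5NC replicate 1 (1.01). In the other pair the list median was 0.17 with 6 members called higher and 1 lower, the difference between the pairs was called for 6, and Col3a1 stood at 59.5 RPKM in KD and 104 in OV.

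Proteases and their inhibitors divided. Of 24 tested 2 were called higher and 4 lower. Timp3, an inhibitor of metalloproteases bound to matrix, went from 33.7, 32.9 and 30.9 RPKM to 121, 127 and 126 (1.91, SE 0.0560, adjusted p = 1.09e-12), and its relative Timp2 was at 212 and 404 RPKM (0.93, short of the fold limit). The aggrecan-cleaving protease gene Adamts5 rose from 4.83 to 17 RPKM (1.63). Among the genes called lower the stromelysin gene Mmp10, which passed the filter through 3NC alone, went from 4.38 to 0.243 RPKM (-2.12), Mmp19 fell from 4.75 to 1.72 (-1.08) and Adam8 from 15.7 to 7.09 (-1.04). The cathepsin genes Ctsl (365 and 672 RPKM, 0.88) and Ctsb (224 and 215, -0.06, adjusted p = 0.285) were not called. Adamts5 was at 16.8 RPKM in KD and 15.7 in OV, so that 3NC stood apart from 3 groups that were alike.

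Cell contact genes were read in the junction, integrin and actomyosin lists. Of 35 junction genes 3 were called higher (8.57%) and 0 lower, 19 were higher and 9 lower with adjusted p no higher than 0.05, and the median was 0.19. Cdh3 (P-cadherin) went from 19.5, 19.2 and 19.9 RPKM to 65.5, 66.3 and 65.5 (1.70, SE 0.0459, adjusted p = 5.34e-13) and stood at 19.8 in KD and 69.2 in OV, so that the groups divided by vector. Cgn (cingulin), a tight junction plaque protein, rose from 20.6 to 58.5 RPKM (1.46). Cdh2 (N-cadherin) was at 51.7 and 91.6 RPKM (0.81), the junction adhesion gene F11r at 51.8 and 91.0 (0.80), and the catenins Ctnnb1 (227 and 254, 0.16) and Ctnna1 (173 and 169, -0.04, adjusted p = 0.480) were close. Of 14 integrin and laminin genes only Itgb7, a leukocyte integrin, was called (2.76 to 0.483 RPKM, -1.34, through 3NC alone), and Itgb1 was at 271 and 291 (0.10, adjusted p = 0.123). Of 32 actomyosin genes only the smooth muscle actin gene Acta2 was called (8.52 to 21.2 RPKM, 1.22), and the medians of these lists, -0.0024 and 0.0071, changed sign with the setting. The actins Actb (1215 and 1224 RPKM, adjusted p = 0.884) and Actg1 (1381 and 1297, adjusted p = 0.105) did not pass the test.

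Growth factor genes moved in both directions. Of 34 ligands and receptors 4 were called higher and 3 lower, and the 3 lower were EGF receptor ligands. Fgf18 rose from 2.58 to 9.57 RPKM (1.57) and Fgf5 from 2.12 to 5.83 (1.13), which with Fgf21 makes 3 fibroblast growth factors. Gas6, the ligand of the TAM receptor kinases, went from 29.8, 28.6 and 30.8 RPKM to 81.6, 77.5 and 79.5 (1.39, SE 0.0610, adjusted p = 5.51e-11), but stood at 97.8 in KD and 69.8 in OV, so that only 3NC was low. Of 28 TGF-beta and BMP response genes 1 was called higher and 2 lower, among them Bmp4 (8.89 to 20 RPKM, 1.09) and the latent TGF-beta binding protein gene Ltbp1 (4.12 to 0.667, -1.62, through 3NC alone). Of 29 Wnt and Notch genes the ligand genes Wnt5a (2.37 to 6.53 RPKM, 1.16) and Jag1 (4.27 to 9.61, 1.01) were called higher, and the call of Jag1 was lost without 5NC replicate 1 (0.99) or 3NC replicate 1 (0.94) and under both other scalings (0.97 each). Of 27 YAP and TAZ targets only Amotl2, an angiomotin of the Hippo pathway, was called, from 44.6 to 101 RPKM (1.16).

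Immune and lysosomal genes gave calls in both directions. Of 29 inflammatory genes the macrophage growth factor gene Csf1 was called higher (56.0 to 117 RPKM, 1.05), and the siderophore-binding protein gene Lcn2 (25.1 to 10.3, -1.21) and the NF-kB regulator Nfkbiz (17.1 to 7.69, -1.06) lower, while the chemokine Ccl2 was at 235 and 229.5 (adjusted p = 0.654). Of 44 interferon-stimulated genes only Ifit1 was called (1.40 to 4.00 RPKM, 1.06), and 0 of 22 MHC class I genes were. Of 9 complement genes 2 (22.2%), Masp1 (2.81 to 6.97 RPKM, 1.07) and Clu (2.80 to 6.82, 1.05), were called higher, the latter not without 3NC replicate 2 (0.97). C3 was at 108 and 58.2 RPKM (-0.87), with 185 in KD and 33.1 in OV. Of 37 lysosome and autophagy genes 26 were higher and 3 lower with adjusted p no higher than 0.05, with a median of 0.27. The 2 called, Lamp1 (203 to 408 RPKM, 1.01) and the sialidase gene Neu1 (6.64 to 14.7, 1.04), both missed the fold limit without 3NC replicate 2 (0.99 each).

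Growth and translation genes gave 1 call between the controls. Of 65 cell cycle and replication genes and 35 p53 targets and apoptosis genes the only call was Cdkn1a (p21), an inhibitor of cyclin-dependent kinases in both lists. It went from 71.7, 69.7 and 71.7 RPKM to 22.3, 19.9 and 20.9 (-1.71, SE 0.0580, adjusted p = 4.24e-12) and was 26.1 in KD and 22.8 in OV. Trp53 was at 118 and 134 RPKM (0.19), Bax at 129 and 162 (0.33) and Gadd45a at 50.7 and 79.7 (0.64). The proliferation genes Top2a (267 and 225 RPKM, -0.25), Birc5 (332 and 243, -0.45), Pcna (469 and 533, 0.18) and Cdk4 (157 and 275, 0.81) did not move in a common direction. Of 56 ribosome biogenesis genes 0 were called and the median was -0.05, whereas for OV against KD 19 were called higher and the median was 0.74, so that the difference between the pairs was called for 18. Nucleolin (Ncl) was at 240.2 and 255 RPKM in the controls and 169.9 and 263 in KD and OV, Fbl at 183 and 165 against 123 and 193, Nop56 at 140.5 and 186 against 71.4 and 195.4, and Npm1 at 1587 and 1583 against 1321 and 1587. In this list KD was the group that stood apart. Ribosomal protein genes (82 tested, median -0.19), oxidative phosphorylation genes (88, -0.07) and metallothionein and zinc transporter genes (16, 0.06) gave 0 calls. Of the ribosomal protein genes 52 were lower and 5 higher with adjusted p no higher than 0.05, and their summed level was 116980 to 118818 RPKM in the 3NC libraries and 101876 to 106250 in the 5NC libraries, which did not overlap. At the same limit 25 oxidative phosphorylation genes were lower, a share near the 25.9% of all genes, and 7 were higher.

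The cells of the other pair, OV against KD, carry the same vectors in other libraries, but the vector and the lncRNA5251 modification go together in them. There 290 genes were called higher (2.58%) and 190 lower (1.69%), 480 in all (4.27%), and the libraries did not overlap for 7632 genes (67.9%). Of the 178 genes higher in 5NC, 82 (46.1%) were also called higher in OV, which is 28.3% of the 290, and 0 were called lower. Their median log2 fold change was 1.27 in the controls and 0.99 in the other pair, and 169 had the same sign. Of the 121 genes lower in 5NC, 23 (19%) were also called lower in OV, which is 12.1% of the 190, and 3 were called higher. These were Fosl1, Gsta1 and the predicted gene Gm3776, which is named only for this count. Their medians were -1.30 and -0.48, and 94 had the same sign. Among the 12 largest rises 11 were called in the same direction in the other pair, and among the 11 falls named 3 were.

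The difference between the pairs was tested for each gene in the same fit. It was called for 320 genes (2.85%), 159 of them higher (1.41%) and 161 lower (1.43%) in the control pair than in the other. For the genes called higher in 5NC it was called in 32 (18%), and for the genes called lower in 49 (40.5%). These genes were chosen for their control difference, which is 1 term of the difference tested. Shares above 2.85% were therefore built in by the choice, and nothing is read from the excess. The genes called lower had medians of 14.7 RPKM in 3NC, 5.21 in 5NC, 9.55 in KD and 5.63 in OV, and those called higher had 4.86, 15.7, 6.18 and 14.1. For the rises the median level of KD was near that of 3NC and that of OV near that of 5NC, whereas for the falls KD lay between 3NC and the LV5 groups. Since these medians are over genes chosen for the control difference, the KD and OV values are the ones that were free to vary.

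**Figure D5:**
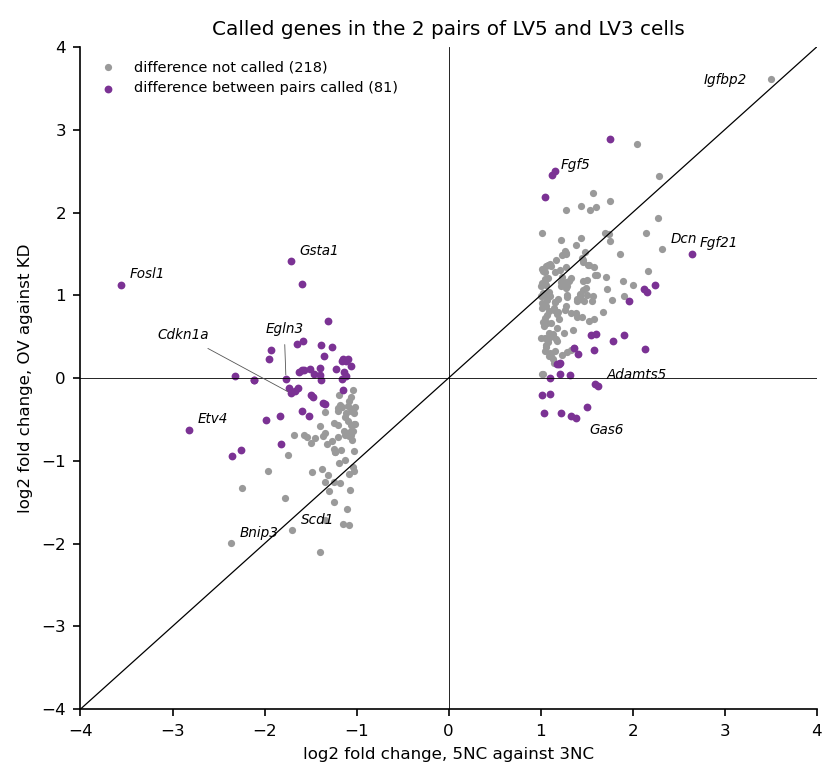
Log2 fold change of the 299 called genes in the controls (5NC against 3NC, x axis) and in the other cells (OV against KD, y axis), in purple where the difference between the pairs was called (81 genes) and in grey elsewhere (218). Genes on the diagonal line changed alike in both pairs, as Igfbp2 did, whereas Egln3 and Cdkn1a lie near 0 on the y axis and Fosl1 and Gsta1 lie above it.

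The genes called lower held many predicted genes, that is genes whose names are Gm or LOC with a number or end in Rik. They made up 22 of the 121 genes called lower (18.2%) and 5 of the 178 called higher (2.81%), against 3.41% of all genes tested. The 22 had a median log2 fold change of -1.38 in the controls and 0.10 for OV against KD, and the difference between the pairs was called for 16 of them (72.7%), against 33 of the 99 others called lower (33.3%). Gm46620, Gm42102 and Gm41844, chosen after their values were seen as abundant examples, went from 154 to 53.9, from 111 to 36.5 and from 104 to 34.5 RPKM. In KD they stood at 48.0, 27.5 and 30.2 and in OV at 51.8, 37.6 and 32.4 RPKM, so that for these genes the 3NC libraries stood above the other 3 groups. What these predicted genes encode is not given in the sources used here.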

How the data were processed

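RNA was read in 12 libraries of C18-4 cells, 3 each of 3NC, 5NC, KD and OV, and groups and replicate numbers came from the sample titles. According to the methods the authors enriched mRNA with oligo(dT), whereas the labels give total RNA. The authors mapped reads with SOAPaligner and deposited RPKM values with 2 decimals for each gene. The genome build and gene set are not given in the sources used here, and the read numbers behind the values are unknown, so that no counting interval can be given.

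The deposited RPKM values were tested as log2(RPKM + 1) with limma 3.58.1 in R 4.3.3, with an intensity trend, all 12 libraries in 1 fit and genes of at least 1 RPKM in at least 3 of the 6 control libraries. The pseudocount of 1 understates changes of low genes. The DEGseq test of the methods was not run, since it needs read numbers, but its limits (adjusted p of 0.001, absolute log2 fold change of 1) were kept, with Benjamini-Hochberg adjustment over all genes tested. The test was checked on artificial data. An exact permutation test of 3 libraries against 3 cannot give a two-sided p below 0.1 and was not used. Counts of columns that fit no sample were 0.

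Named genes are the 12 largest rises and 12 largest falls with a mean of at least 5 RPKM in the higher group, predicted genes left out, up to 6 called members and 4 further abundant members of each of 29 gene lists, up to 6 members of each of 9 marker lists with defining markers at 0, and Purb. Not every gene that meets this rule is reported here. Members and lists were chosen with earlier results of these data known. Promoter sequences are from RefSeq (GRCm38.p6), and the hairpin is from the study's oligonucleotide list. Alternatives changed the pseudocount, the filter, the scaling, the thresholds, the libraries fitted and the replicate block, and left out each library in turn.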

Additional observations from a re-analysis of the deposited data

Results flagged for a closer look

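For 42 of the 154 tested genes named in the report, the change between the controls differed from the change between OV and KD by the test of the difference itself, in limma with the limits used throughout (2.85% of all genes passed it). Many of these genes were named for their change between the controls, which is 1 term of this difference, so that their number and signs depend in part on that choice and nothing is read from them. All values below are the log2 fold change of 5NC against 3NC minus that of OV against KD, with 6 libraries on each side, and 31 of the 42 were negative. Both contrasts join vector with other differences, so that the values do not separate them, and no cause was tested.

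Among the factors and ligands of the ERK list the differences were -4.68 for Fosl1, -2.20 for Etv4, -1.79 for Ier3, -1.65 for Phlda1, -1.31 for Etv5, -1.24 for Ereg and -1.03 for Areg. In the NRF2 list they were -3.12 for Gsta1, -1.75 for Gsta4, -1.38 for Pgd, -1.14 for Srxn1, -1.06 for Esd and -1.03 for Nqo1. In the other lists they were -2.10 for Mmp10, -1.75 for Egln3, -1.69 for Ltbp1, -1.61 for Fabp4, -1.52 for Cdkn1a, -1.47 for Angptl4, -1.32 for Fgf5 and -1.04 for Nop56. Outside the lists they were -2.18 for Prkg2, -2.10 for Tmem171, -1.42 for Hmga1b, -1.39 for Hmga1 and -1.37 for Spp1. The predicted genes gave -2.72 for Gm3776, -2.03 for Gm42102, -1.67 for Gm41844 and -1.61 for Gm46620. Purb, the gene that the knockdown hairpins match, gave -1.56, at 9.32 RPKM in KD and 27.1 in OV.

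The 11 positive differences were 1.87 for Gas6, 1.79 for Krt7, 1.78 for Ptprz1, 1.72 for Adamts5, 1.64 for Acta2, 1.57 for C3, 1.14 for Fgf21, 1.12 for Flrt3, 1.12 for Pkhd1l1, 1.05 for Lrrn4 and 1.002 for Col5a2. In Gas6, Acta2, Krt7 and Col5a2 every KD library was higher than every OV library, in Adamts5 they overlapped, and in C3 the fall was larger in OV against KD.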

How the results depend on the processing

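The counts of called genes depended on the fold scale and thresholds. With a pseudocount of 0.1, 5NC had 291 genes higher and 200 lower than 3NC (OV against KD 426 and 424, difference between the pairs 521). Dropping the fold limit at an adjusted p up to 0.05 gave 3514 and 2910 (OV against KD 3533 and 4427, difference 5845), and taking a ratio of 2 or more between the group means gave 315 and 221 (OV against KD 448 and 456). Other settings stayed within 1.5 times. Leaving out each library in turn gave 169 to 187 higher and 123 to 128 lower (OV against KD 272 to 319 and 188 to 224, difference 309 to 361). Libraries shifted to the same median, an alternative chosen after seeing the data like all alternatives for the difference, gave 159 and 140, with 280 of the 299 genes shared, and quantile normalization shared 288. These scalings moved the median of all genes from 0.021 to -0.020 and -0.0086.

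The replicate block called 178 higher and 121 lower, the same 299 genes (OV against KD 291 and 190, difference 320). Deviations of same-numbered 3NC and 5NC libraries correlated at 0.0456, 0.0931 and 0.0458, each higher than with other numbers, but the libraries share only a number and were not treated as pairs.

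Of 2808 values of 216 genes that meet the naming rule or are named in the text 12 lost and 11 gained the call and 0 of the called genes changed direction. Slc7a1 lost its call with shifted medians (0.97), as did Jag1 and Lamp1 (0.97 each), while Gsta4 and Hspa5 gained it (-1.03 each). Sparc gained it under quantile normalization (1.101) and Cd68 with a pseudocount of 0.1 (-1.17). List medians moved beyond the spread between libraries in 170 of 481 values, and they changed sign or went to 0 in 12, all of them in the integrin, actomyosin, spermatogonia, later germ cell, Leydig and myoid lists. RPKM values without read numbers limit the low genes most.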
